A study of Mus musculus with 69 samples.

Results

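Metallothioneins and the proteins that carry zinc across membranes were followed in whole lung of mice instilled with nano-TiO2. The set holds 7 genes, chosen by name, of the 18656 genes tested: the metallothioneins Mt1, Mt2 and Mt3, the zinc exporter Slc30a1, the zinc importers Slc39a14 and Slc39a8, and the metal-sensing transcription factor Mtf1. They were read by 12 probes, found through the accession that each probe carries. Female C57BL/6 mice from Taconic, 5 to 7 weeks of age on arrival and acclimatised for 1 to 3 weeks, were given 1 intratracheal instillation of 18, 54 or 162 µg of NRCWE-025 or NRCWE-030, or the vehicle alone, which was 2% serum in water. Lungs were collected 24 hours (day 1) or 28 days later. Each of the 69 arrays held RNA from a small frozen piece of the lung of 1 mouse, with 5 mice in each of the 14 groups except NRCWE-025 at 162 µg on day 28 (n = 4), and the 5 vehicle mice of a day served as controls for both materials. A value is the log2 ratio of lung RNA to a commercial pool of mouse reference RNA on the same array, so a level of 1 gene cannot be set against that of another, and a difference of 1 between groups is a doubling.

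Metallothioneins are small cysteine-rich proteins that bind zinc and copper. Mt1 and Mt2 are known to be switched on by metals, glucocorticoids and inflammatory cytokines. Metals act through MTF-1, the product of Mtf1, which senses free zinc and binds short metal response elements in promoters. Slc30a1 (ZnT1) moves zinc out of the cell and is another classical MTF-1 target, while Slc39a14 (ZIP14) and Slc39a8 (ZIP8) bring zinc, iron and manganese in, Slc39a14 being known as a cytokine-induced gene of the acute phase in liver. Mt3 is best known from brain.

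The promoters of Mt1 and Mt2 are shown because these neighbouring genes were the pair of members whose values moved most closely together from lung to lung. Each stretch holds 250 bases before the annotated start and 30 from it, 5′ to 3′, from RefSeq on build GRCm38.p6, and capitals mark every match to the core of a metal response element, TGCACNC or TGCGCNC, on either strand.
Mt1, chr8:94178839-94179118, + strand: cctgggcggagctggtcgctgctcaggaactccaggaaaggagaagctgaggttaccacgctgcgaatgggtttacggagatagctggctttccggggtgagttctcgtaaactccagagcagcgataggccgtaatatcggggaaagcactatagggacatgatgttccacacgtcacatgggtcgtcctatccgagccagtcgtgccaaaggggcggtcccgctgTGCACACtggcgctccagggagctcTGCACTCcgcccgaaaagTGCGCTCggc
Mt2, chr8:94172368-94172647, + strand: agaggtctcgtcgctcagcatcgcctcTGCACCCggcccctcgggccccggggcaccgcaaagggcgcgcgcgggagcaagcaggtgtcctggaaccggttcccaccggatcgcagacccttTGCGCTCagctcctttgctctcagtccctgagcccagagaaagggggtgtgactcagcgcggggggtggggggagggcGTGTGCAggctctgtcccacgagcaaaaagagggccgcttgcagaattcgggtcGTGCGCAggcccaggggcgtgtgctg
The Mt1 stretch held 3 matches, all on the strand of the gene, and that of Mt2 held 4, of which 2 lay on each strand. The annotated start of Mt1 may lie upstream of the start used in the literature. Elements beyond the printed stretch were not counted, so its count may not cover the whole proximal promoter. At least 1 match was present in 24.1% of all 32841 stretches of this length in the promoter table, and 3 or more in 1.73%. Among the other members, the promoter of Slc30a1 held 1 match, 1 of the 2 listed starts of Slc39a8 held 1, and those of Mt3 and Mtf1 held 0. Slc39a14 was not matched in the table. A match is a run of letters only, not a known binding site.

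On the arrays, 49.1% to 72.8% of spots stood well above background in the lung channel, and no spot was saturated. Defining lung markers such as Sftpc and Scgb1a1 were well above background on all 69 arrays. Markers of neighbouring tissue varied: the mean log2 ratio of 8 atrial and pulmonary vein muscle genes ran from 0.13 to 5.19 and that of 7 fat genes from 0.49 to 4.86 over the arrays. In whole lung, a lower value from fewer cells of a type and one from less RNA per cell cannot be told apart.

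Every probe of Mt1, Mt2, Mt3, Slc30a1 and Slc39a8 was well above background on all 69 arrays. The probes of Slc39a14 were dimmer, A_51_P324110 reaching this mark on 54 arrays and A_51_P282983 on 50. For Mtf1, probes A_52_P236072 and A_52_P467266 reached it on 69 arrays and A_52_P55666 on 0. Mt1 had 10 spots of 1 probe on each array, and the SD between these spots was 0.06 (median over arrays), against an SD of 0.35 between arrays.

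Mt2 had the widest range of the members. On day 1 the 5 vehicle lungs had Mt2 values of -2.92, -2.72, -2.59, -2.53 and -2.43. At 162 µg of NRCWE-030 the values were -2.37, -2.10, -1.33, -0.99 and -0.12, so that all 5 lay above every vehicle lung, yet they were spread over more than 2 log2 units while the vehicle lungs lay close together. With 162 µg of NRCWE-025 the values were -2.50, -2.08, -1.86, -1.42 and -0.13, and 4 of 5 lay above every vehicle lung. The SD was 0.19 in the vehicle lungs, 0.90 at 162 µg of NRCWE-030 and 0.91 at 162 µg of NRCWE-025.

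The mean Mt2 value on day 1 went from -2.64 ± 0.19 (SD, n = 5) with vehicle to -2.26 ± 0.73 at 18 µg, -1.67 ± 0.90 at 54 µg and -1.38 ± 0.90 at 162 µg of NRCWE-030. For NRCWE-025 it was -2.75 ± 0.29 at 18 µg, -2.11 ± 0.47 at 54 µg and -1.60 ± 0.91 at 162 µg. The difference from vehicle was 1.26 at 162 µg of NRCWE-030 (SE 0.43, 2.39-fold, 95% interval 0.37 to 2.15, limma adjusted p = 0.159) and 1.04 at 162 µg of NRCWE-025 (SE 0.31, 2.06-fold, 95% interval 0.40 to 1.69, limma adjusted p = 0.148). Neither passed the threshold of an adjusted p under 0.05. A larger absolute difference was seen for 0.289% of all genes with NRCWE-030 and for 0.316% with NRCWE-025. At 54 µg the difference was 0.97 for NRCWE-030 (SE 0.43, limma adjusted p = 0.515) and 0.53 for NRCWE-025 (SE 0.31, limma adjusted p = 0.843).

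Single lungs carried much of this. Without replicate 4 of NRCWE-025 at 162 µg, the lung at -0.13, the difference was 0.68, and without replicate 5 of NRCWE-030 at 54 µg, also at -0.13, it was 0.58. Leaving out any 1 array moved the value at 162 µg of NRCWE-030 between 0.94 and 1.51. Each limma fit, the main ones included, assumes the same spread in every group that it holds. With all 14 groups in 1 fit, the limma adjusted p of Mt2 at 162 µg of NRCWE-030 was 0.0179.

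**Figure D1:**
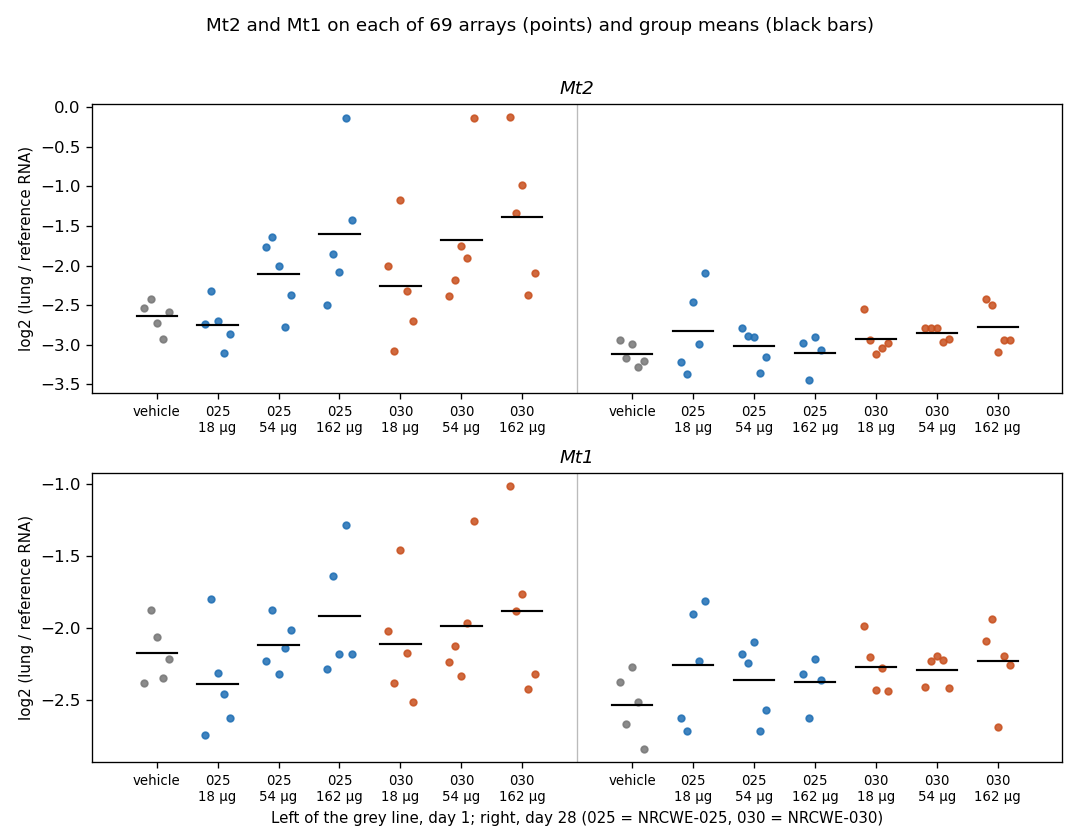
Log2 ratio of lung to reference RNA for Mt2 (upper panel) and Mt1 (lower panel), 1 point per array and a black bar at each group mean, with day 1 on the left and day 28 on the right (grey, vehicle; blue, NRCWE-025; red, NRCWE-030). On day 1 the Mt2 values of vehicle lungs lie between -2.92 and -2.43, while those at 54 and 162 µg of NRCWE-030 all lie above them and reach -0.13 and -0.12.

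Mt1 differed less. Its day 1 values with vehicle were -2.38, -2.35, -2.22, -2.07 and -1.87, and with 162 µg of NRCWE-030 they were -2.43, -2.32, -1.88, -1.76 and -1.01. The groups overlapped, 2 of the 5 treated lungs lying above all vehicle lungs and 1 below them. The difference was 0.30 at 162 µg of NRCWE-030 (SE 0.25, 95% interval -0.22 to 0.81, limma adjusted p = 0.712) and 0.26 at 162 µg of NRCWE-025 (SE 0.19, 95% interval -0.12 to 0.65, limma adjusted p = 0.607). After scaling the arrays to the same spread these values were 0.10 and 0.01, and without the lung highest in Mt1 (replicate 1 of NRCWE-030, replicate 4 of NRCWE-025) they were 0.08 and 0.10. On the slides that held vehicle lungs too, Mt1 at 162 µg of NRCWE-030 was 0.45 and 1.34 above them, and at 162 µg of NRCWE-025 it was 0.10 and 0.43 above.

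The lungs with high Mt2 were also high in Mt1. Replicate 1 at 162 µg of NRCWE-030, replicate 5 at 54 µg of NRCWE-030 and replicate 4 at 162 µg of NRCWE-025 had the 3 highest Mt2 values, -0.12, -0.13 and -0.13, and the 3 highest Mt1 values, -1.01, -1.25 and -1.28. Over the 69 arrays Mt1 and Mt2 correlated with r = 0.83, and their deviations from the group means with r = 0.83. The relation was thus as close after the group means were taken out. The relation was present on both days, with r = 0.84 over the 35 arrays of day 1 and r = 0.88 over the 34 of day 28. Mt2 and Slc39a14 correlated with r = 0.71 on day 1 and r = 0.10 on day 28, and their deviations from the group means on day 1 with r = 0.59. These are descriptions over arrays that share a reference pool and a hybridisation. The same 3 lungs were on 3 different slides, but of the 5 lungs with the highest Mt2, 4 were scanned on the same day and 3 of these were on the same slide. With scan day as a fixed block, the Mt2 difference at 162 µg was 1.33 for NRCWE-030 and 1.13 for NRCWE-025.

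**Figure D2:**
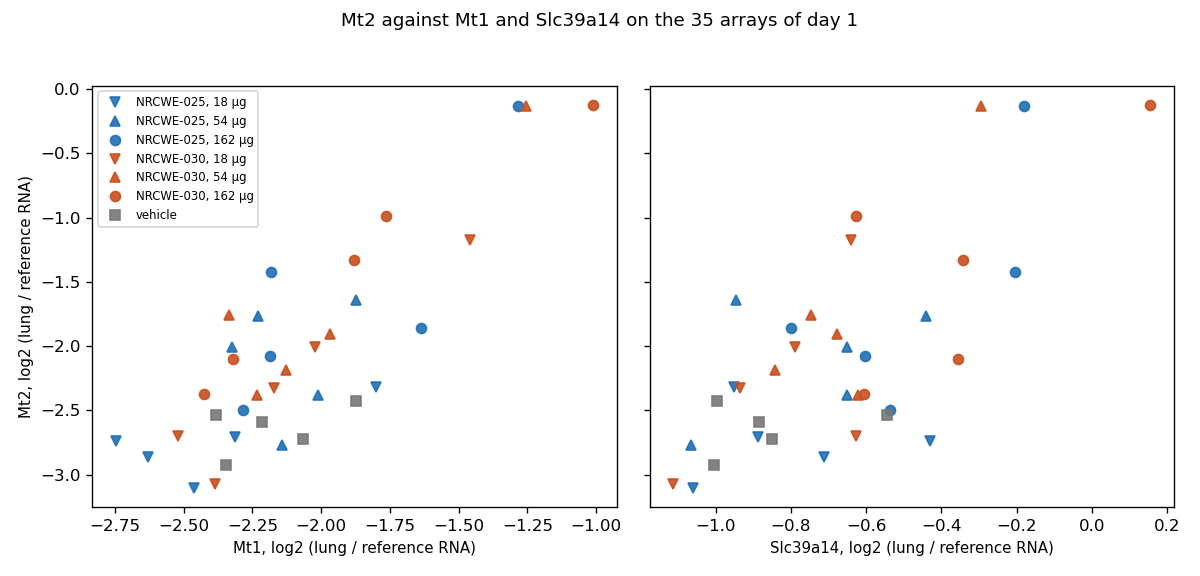
Mt2 (vertical axis) against Mt1 (left) and Slc39a14 (right), all as log2 ratio of lung to reference RNA, for the 35 arrays of day 1, with symbols for dose and colours for material. The 3 lungs with the highest Mt2 are the 3 with the highest Mt1, and over these arrays r was 0.84 with Mt1 and 0.71 with Slc39a14.

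Slc39a14, the ZIP14 importer, had a smaller difference of the same kind on day 1. Vehicle lungs had Slc39a14 values of -1.0, -0.99, -0.88, -0.85 and -0.54. At 162 µg of NRCWE-030 the values were -0.63, -0.60, -0.35, -0.34 and 0.15, and at 162 µg of NRCWE-025 they were -0.80, -0.60, -0.54, -0.21 and -0.18. In each of these groups 3 of 5 lungs lay above all vehicle lungs and the ranges overlapped. The difference from vehicle was 0.50 for NRCWE-030 (SE 0.14, 1.41-fold, 95% interval 0.20 to 0.79, limma adjusted p = 0.0811) and 0.39 for NRCWE-025 (SE 0.14, 1.31-fold, 95% interval 0.09 to 0.69, limma adjusted p = 0.248). Calculated from the log ratio of the scanner software, the difference for NRCWE-030 was 1.21 (limma adjusted p = 0.0445), and that for NRCWE-025 was 0.87. With slide as a fixed block, the value for NRCWE-025 was 0.11. At 18 µg the difference was 0.03 for NRCWE-030 and 0.05 for NRCWE-025.

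Slc30a1, the ZnT1 exporter, differed most from vehicle on day 1 with NRCWE-030 at 54 µg. Its values there were 1.42, 1.49, 1.51, 1.56 and 1.59 against 1.03, 1.04, 1.04, 1.21 and 1.34 with vehicle. The 5 treated lungs lay above every vehicle lung and close to each other. The difference was 0.38 (SE 0.09, 1.3-fold, 95% interval 0.20 to 0.57, limma adjusted p = 0.10). It was 0.23 at 18 µg (SE 0.09) and 0.24 at 162 µg (SE 0.09, limma adjusted p = 0.215), so the largest mean was at the middle dose. The adjusted p at 54 µg was 0.0385 with slide as a random block, 0.0358 with all 14 groups in 1 fit and 0.0399 without replicate 3 of the vehicle group, the vehicle lung with the highest value. For NRCWE-025 the differences were 0.08, 0.15 and 0.19 at 18, 54 and 162 µg, and the last was -0.01 when marked local backgrounds were not replaced.

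The separate probes of Slc30a1 did not follow each other over the arrays (r = 0.07, n = 69). On day 1, with NRCWE-030 at 54 µg, the difference was 0.55 for A_51_P300572 (SE 0.17, limma adjusted p = 0.350 over all probes) and 0.21 for A_51_P250378 (SE 0.14, limma adjusted p = 0.864). The probes of Slc39a14 and of Slc39a8 followed each other more closely, with r = 0.78 over 68 arrays and r = 0.66 over 69. Those of Mtf1 that were well above background ran opposite ways, with r = -0.66. Tested probe by probe, 0 of the 11 member probes with a value on every array passed an adjusted p under 0.05 in any comparison with limma.

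**Figure D3:**
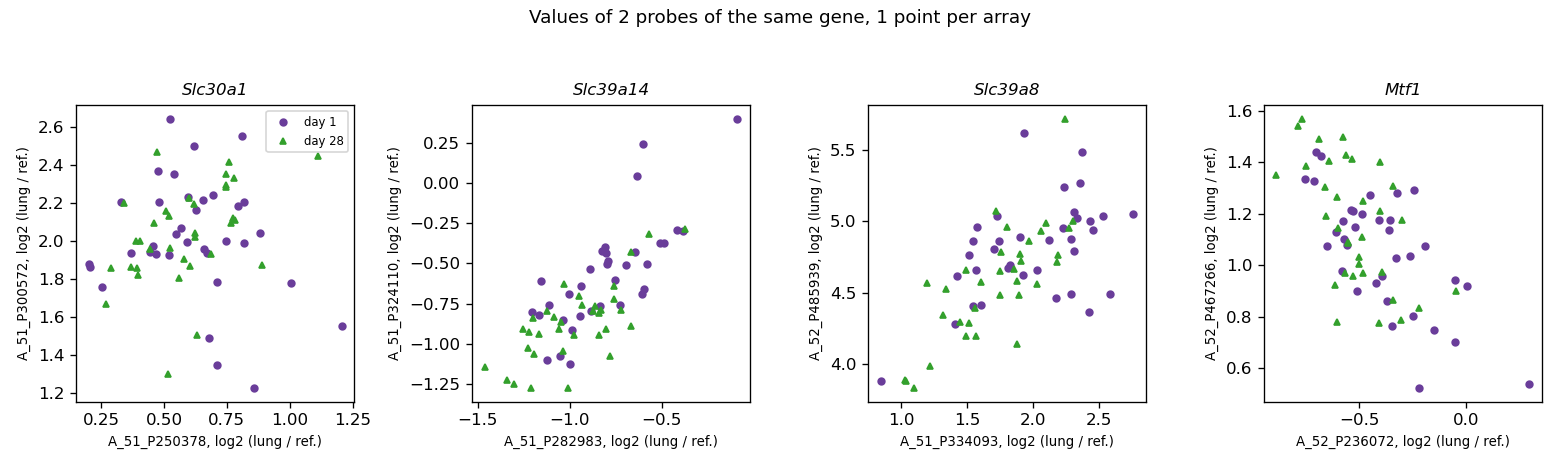
Log2 ratio of lung to reference RNA for probes of the same gene plotted against each other, 1 point per array (circles, day 1; triangles, day 28). The probes of Slc39a14 (r = 0.78) and Slc39a8 (r = 0.66) follow each other, those of Slc30a1 do not (r = 0.07), and those of Mtf1 run opposite ways (r = -0.66).

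Slc39a8, the ZIP8 importer, had differences from vehicle on day 1 between -0.41, at 18 µg of NRCWE-030, and 0.17, at 18 µg of NRCWE-025. At 18 µg of NRCWE-030 the values were 2.36, 3.02, 3.26, 3.32 and 3.59 against 3.24, 3.40, 3.49, 3.72 and 3.74 with vehicle. The groups overlapped, and the difference of -0.41 had an adjusted p of 0.672 by limma and was -0.22 without replicate 5, the lung at 2.36. At 162 µg the differences were -0.16 for NRCWE-030 (95% interval -0.56 to 0.24) and -0.11 for NRCWE-025 (95% interval -0.46 to 0.25).

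The gene value of Mtf1, a median over its probes, was close to that of A_52_P55666, the middle one of the 3 probes and above background on 0 arrays, so its spread says little of the gene. Over the 69 arrays A_52_P55666 had an SD of 0.12, while the bright probes had SDs of 0.21 (A_52_P236072) and 0.24 (A_52_P467266). The group means of Mtf1 ran from 0.05 to 0.20 and the differences from vehicle on day 1 from 0.02 to 0.15, with an adjusted p of 0.399 by limma at 162 µg of NRCWE-030, where the difference was largest. That difference was the one of A_52_P55666, while the bright probes gave 0.13 (A_52_P236072) and -0.03 (A_52_P467266). Group means of Mt3 ran from 0.16 to 0.47, and the largest difference on day 1 was 0.16, at 162 µg of NRCWE-030 (95% interval -0.07 to 0.40).

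**Figure D4:**
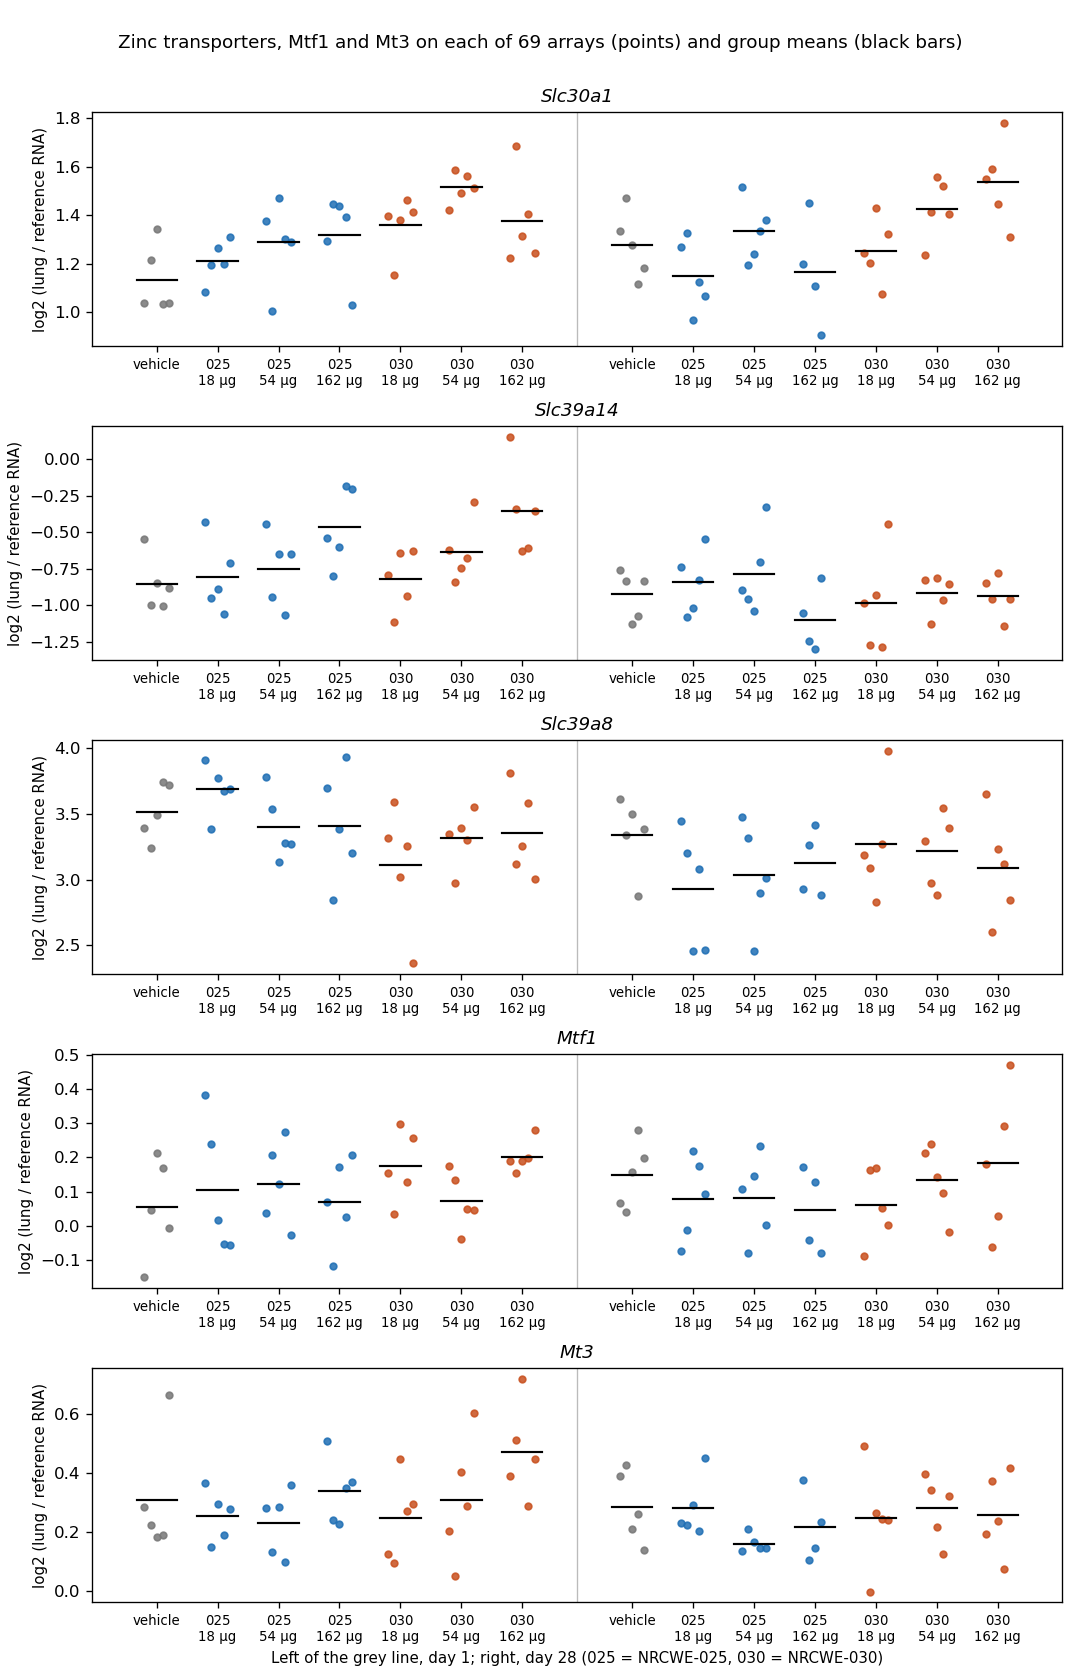
Log2 ratio of lung to reference RNA for Slc30a1, Slc39a14, Slc39a8, Mtf1 and Mt3, 1 point per array and a black bar at each group mean, with day 1 on the left and day 28 on the right (grey, vehicle; blue, NRCWE-025; red, NRCWE-030), each panel on its own scale. The Slc30a1 values at 54 µg of NRCWE-030 on day 1 lie between 1.42 and 1.59, above all vehicle lungs of that day.

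Read against all genes, none of the members was called on day 1. In the limma F-test of dose, 0 of 7 members had an adjusted p under 0.05 for NRCWE-025, as did 0.0214% of all genes, and 0 of 7 for NRCWE-030, where 0.959% of all genes did. At an unadjusted p under 0.05 there was 1 member for NRCWE-025 (Mt2), beside 9.96% of all genes, and there were 3 for NRCWE-030 (Mt2, Slc30a1 and Slc39a14), beside 11.2%. Of the single doses of NRCWE-030 against vehicle, 0 of 7 members were called by limma at 18, 54 and 162 µg, where 0.00536%, 0.0804% and 1.71% of all genes were called. Their unadjusted p was under 0.05 for 2 members at 18 µg (Slc30a1 and Slc39a8), 2 at 54 µg (Mt2 and Slc30a1) and 3 at 162 µg (Mt2, Slc30a1 and Slc39a14), beside 7.3%, 8.75% and 12.9% of all genes. For NRCWE-025, 0 of 7 were called at 18, 54 and 162 µg, as were 0%, 0% and 0.209% of all genes, and 0, 0 and 2 members (Mt2 and Slc39a14) had an unadjusted p under 0.05, beside 5.11%, 6.53% and 12.3%.

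Overlap was also counted, first for NRCWE-030 on day 1. At 54 µg all treated lungs lay above all vehicle lungs for 2 of 7 members (Mt2 and Slc30a1), and for 1.07% of all genes. At 162 µg this was so for 1 of 7 members (Mt2), and for 2.89% of all genes. In every other comparison of a dose with vehicle, for either material and day, no member was so separated. The share of all genes was not counted for those comparisons. The median difference of the members at 162 µg on day 1 was 0.24 for NRCWE-030 and 0.19 for NRCWE-025. The median over all genes was 0.00 for both. With 7 members the median is the value of 1 gene, here Slc30a1 for both materials. At 18 µg on day 1 the member median was 0.06 for NRCWE-030 and 0.05 for NRCWE-025. At 162 µg on day 28 it was 0.03 and -0.10. Comparisons of the materials with vehicle share the same control lungs.

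**Figure D5:**
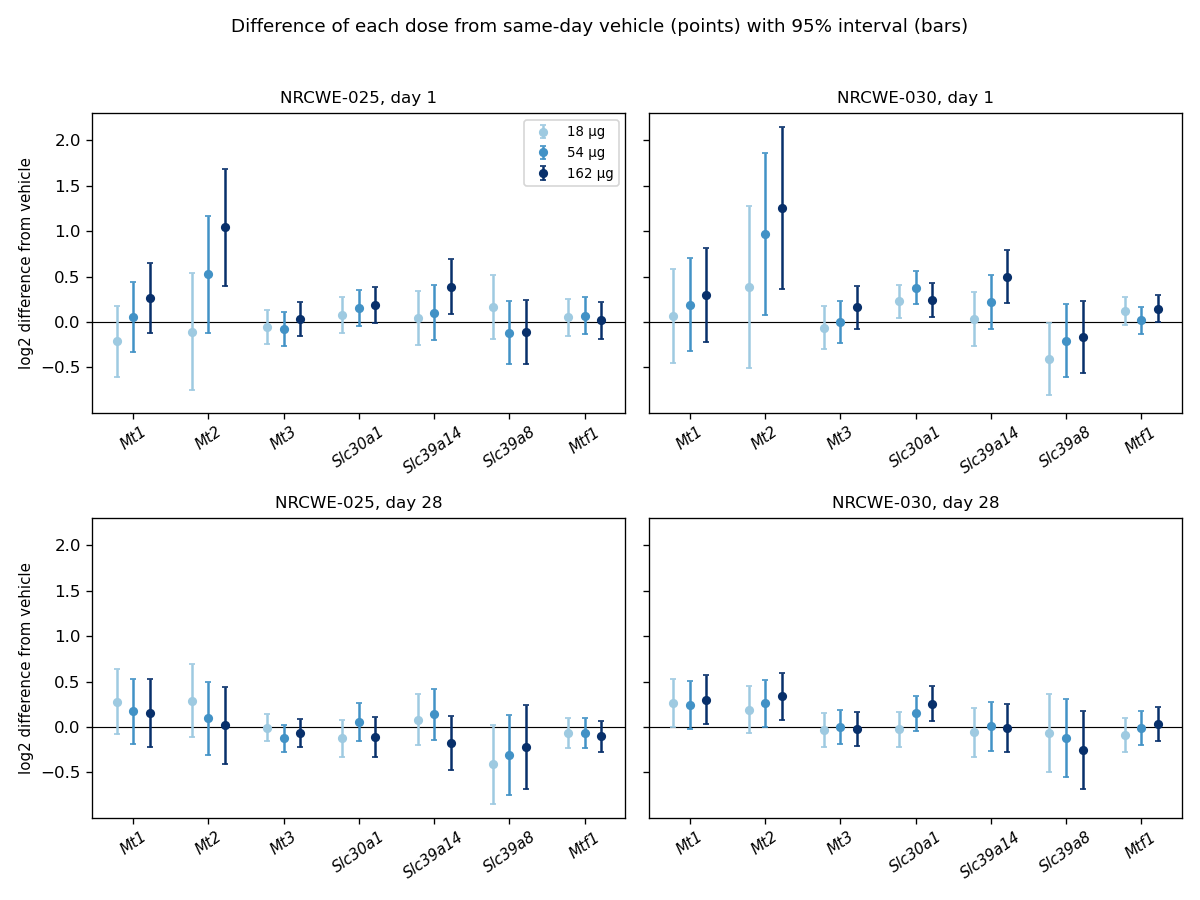
Log2 difference from the vehicle group of the same day for each member at 18, 54 and 162 µg, with bars for the 95% interval from the limma fit, by material (columns) and day (rows). On day 1 the points of Mt2 and Slc39a14 increase with dose for both materials, and by day 28 the Mt2 points at 162 µg are at 0.02 for NRCWE-025 and 0.34 for NRCWE-030.

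By day 28 the Mt2 values at 162 µg of NRCWE-030 were -3.10, -2.94, -2.94, -2.49 and -2.42, with vehicle lungs at -3.28, -3.20, -3.17, -3.0 and -2.95. The ranges overlapped, 4 of 5 treated lungs lying above all vehicle lungs. The difference was 0.34 (SE 0.12, 1.27-fold, 95% interval 0.08 to 0.60, limma adjusted p = 0.509). For NRCWE-025 at 162 µg (n = 4) it was 0.02 (95% interval -0.41 to 0.44). The Mt1 difference at 162 µg of NRCWE-030 was 0.30 (SE 0.13, limma adjusted p = 0.611), as large as on day 1, and it was 0.27 at 18 µg and 0.24 at 54 µg. With NRCWE-025 the Mt1 difference was 0.28, 0.17 and 0.16 at 18, 54 and 162 µg. Of the 29 dosed lungs of day 28, 16 had Mt1 above all vehicle lungs of that day and 0 below them. All were set against the same vehicle lungs, which had the lowest Mt1 mean of the 14 groups. For the other members the counts above and below were 16 and 3 (Mt2), 6 and 5 (Slc30a1), 5 and 6 (Slc39a14). They were 2 and 6 for Slc39a8, 2 and 5 for Mt3, and 2 and 11 for Mtf1. Such counts were not made over all genes. Slc30a1 at 162 µg of NRCWE-030 had values of 1.31, 1.45, 1.55, 1.59 and 1.78 against 1.12, 1.18, 1.28, 1.33 and 1.47, a difference of 0.26 (SE 0.09, limma adjusted p = 0.485), and 3 of 5 lay above all vehicle lungs. Slc39a14 was at -0.01 from vehicle with 162 µg of NRCWE-030 (95% interval -0.28 to 0.26) and at -0.18 with NRCWE-025 (95% interval -0.48 to 0.12).

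On day 28 the limma F-test of dose called 0 of 7 members for NRCWE-025, beside 0.0375% of all genes, and 0 of 7 for NRCWE-030, beside 0.102%. At an unadjusted p under 0.05 these were 0 members and 5.77% of all genes for NRCWE-025, and 1 member (Slc30a1) and 7.08% for NRCWE-030. Of the doses of NRCWE-025, 18, 54 and 162 µg called 0 of 7 members each by limma, beside 0.059%, 0.0268% and 0.0161% of all genes, and the unadjusted p was under 0.05 for 0 members at each, beside 8.86%, 7.08% and 7.23%. The doses of NRCWE-030 called 0 of 7 members each, beside 0.118%, 0.0536% and 0.0965%, and the unadjusted p was under 0.05 for 1 member at 18 µg (Mt1), 1 at 54 µg (Mt2) and 3 at 162 µg (Mt1, Mt2 and Slc30a1), beside 9.01%, 6.53% and 7.51%.

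The response to 162 µg was then set between the days, as the difference from vehicle on day 1 minus that on day 28. For Mt2 this was 1.03 for NRCWE-025 (SE 0.47, 95% interval 0.08 to 1.97, limma adjusted p = 0.421, and 0.66 without replicate 4 at 162 µg on day 1) and 0.92 for NRCWE-030 (SE 0.46, 95% interval -0.00 to 1.84, limma adjusted p = 0.654). For Slc39a14 it was 0.57 (SE 0.21, limma adjusted p = 0.312) and 0.51 (SE 0.21, limma adjusted p = 0.474), and from the log ratio of the scanner software it was 1.31 and 1.11. Mt1 was at 0.11 (95% interval -0.49 to 0.70) and -0.01 (95% interval -0.59 to 0.57). Limma called 0 of 7 members for NRCWE-025 and 0 of 7 for NRCWE-030, beside 0.059% and 0.198% of all genes, and the unadjusted p was under 0.05 for 3 (Mt2, Slc30a1 and Slc39a14) and 1 (Slc39a14), beside 10.5% and 7.67%. In vehicle lungs alone, day 28 minus day 1 was -0.48 for Mt2 (SE 0.32, 95% interval -1.13 to 0.17) and -0.36 for Mt1 (SE 0.20, 95% interval -0.77 to 0.05). These SEs come from the fit of all 14 groups. In that fit the SD of Mt2 reached 0.91 in a dosed group, against 0.19 and 0.14 in vehicle lungs of days 1 and 28. All 5 Mt2 values of day 28 vehicle lungs (-3.28 to -2.95) lay below the 5 of day 1 (-2.92 to -2.43), while the Mt1 values overlapped. How many of all genes were so separated was not counted. In this contrast limma called 0 of 7 members, beside 0.0375% of all genes, with 0 at an unadjusted p under 0.05, beside 8.54%.

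The materials were compared at equal dose and day, NRCWE-030 minus NRCWE-025, over 3 doses on each of 2 days. For Mt2 on day 1 this was 0.49 at 18 µg (95% interval -0.16 to 1.14), 0.44 at 54 µg (95% interval -0.21 to 1.09) and 0.21 at 162 µg (95% interval -0.44 to 0.86). The largest for Slc39a14 on day 1 was 0.11 at 54 and 162 µg (95% interval -0.18 to 0.41 and -0.18 to 0.40). Slc30a1 was 0.37 higher with NRCWE-030 at 162 µg on day 28 (SE 0.10, 95% interval 0.17 to 0.57, limma adjusted p = 0.468) and 0.23 higher at 54 µg on day 1 (SE 0.09, limma adjusted p = 0.737). Slc39a8 was at -0.58 at 18 µg on day 1 (SE 0.21, 95% interval -1.0 to -0.16, limma adjusted p = 0.444). In the limma F-test over the 3 doses, 0 of 7 members were called on day 1 and 0 of 7 on day 28, beside 0.161% and 0.236% of all genes. At an unadjusted p under 0.05 there was 1 member, Slc30a1, on each day, beside 7.78% and 6.28%.

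Ranked by group mean, Mt2 was highest at 162 µg of NRCWE-030 on day 1 (-1.38) and lowest in vehicle lungs of day 28 (-3.12), with 162 µg of NRCWE-025, 54 µg of NRCWE-030, 54 µg of NRCWE-025 and 18 µg of NRCWE-030, all of day 1, following the highest. Mt1 had the same top 3 groups and the same lowest one, between -1.88 and -2.54. Slc39a14 was also highest at 162 µg of NRCWE-030 on day 1 (-0.36) and lowest at 162 µg of NRCWE-025 on day 28 (-1.10). Slc30a1 ran from 1.13 in vehicle lungs of day 1 to 1.54 at 162 µg of NRCWE-030 on day 28. For each of the 7 members, 0 of the 13 pairs of neighbours in this order differed by more than the larger of their SDs. Sorting itself keeps the gaps between neighbours small, so this count says nothing of groups further apart in the order.

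Slides held lungs of several groups, which allowed differences within a slide. The Mt2 difference between 162 µg of NRCWE-030 and vehicle on day 1 was 1.61 and 2.80 on the 2 slides with both groups, and that for NRCWE-025 was 0.04 and 0.86 on 2 slides. With slide as a fixed block the fits gave 1.68 and 0.90. For Slc39a14 the values within slides were 0.26 and 1.16 for NRCWE-030 and 0.01 and 0.05 for NRCWE-025. Slc30a1 at 54 µg of NRCWE-030 was 0.21, 0.47 and 0.55 above vehicle on 3 slides.

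The genes whose values were most like those of a member were taken by Pearson's r over the 69 arrays, as a description. For Mt2 they were Tmem208 (r = 0.88), Timp1 (r = 0.88), an inhibitor of matrix metalloproteinases, Ccl17 (r = 0.85), a chemokine, Hmox1 (r = 0.84), the haem-degrading oxygenase, and Mt1 (r = 0.83). For deviations from the group means r was 0.77, 0.74, 0.63, 0.65 and 0.83 in this order, and Mt1 then ranked highest of all genes. Mt1 was most like Mt2 (r = 0.83), followed by Uqcrq, a subunit of mitochondrial complex III (r = 0.74), Ccno (r = 0.73), Il17rc (r = 0.73) and Phpt1 (r = 0.72). Slc39a14 was most like Gpr176 (r = 0.84), Steap2 (r = 0.83), Egln3 (r = 0.82), Mms22l (r = 0.81) and Cenpk (r = 0.80). Steap2 is a metalloreductase and Egln3 a prolyl hydroxylase that acts on hypoxia-inducible factors. Arrays of all groups and both days enter these values, which share 1 reference pool.

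The other genes of the family were 22, namely Mt4, 9 other Slc30a exporters and 12 other Slc39a importers, and 0 of 22 were called by limma in any comparison. At 162 µg on day 1, 2 were higher and 1 lower for NRCWE-030 at an unadjusted p under 0.05, and 6 were higher and 2 lower for NRCWE-025, where 12.9% and 12.3% of all genes had such a p in either direction. The median difference of the 22 genes was 0.05 and 0.09. Slc39a7 (ZIP7), which releases zinc from the endoplasmic reticulum, was 0.40 higher with NRCWE-030 (limma adjusted p = 0.0952) and 0.42 higher with NRCWE-025 (limma adjusted p = 0.179). Slc39a1 (ZIP1), an importer of the plasma membrane, was 0.41 and 0.42 higher (limma adjusted p = 0.118 and 0.136).

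Of 20 genes that handle iron and copper, 4 were called in the limma F-test of dose for NRCWE-030 on day 1. In that test 0.959% of all genes were called. All 4 were higher than vehicle at 162 µg. The F-test takes any difference between vehicle and the doses and does not test for a steady rise. For these 4 the adjusted p given is that of the F-test, and the difference and SE are those at 162 µg. Lcn2, which binds bacterial iron carriers, was 3.06 higher at 162 µg (SE 0.34, adjusted p = 8.87e-05). Tfrc, the transferrin receptor, was 0.90 higher (SE 0.14, adjusted p = 0.0102), the ferritin heavy chain gene Fth1 0.87 higher (SE 0.16, adjusted p = 0.0125), and Slc11a1, a metal pump of phagosomes, 0.55 higher (SE 0.13, adjusted p = 0.0486). The contrast of 162 µg alone also called Hmox1, 0.94 higher (SE 0.23, limma adjusted p = 0.0441), and the metalloreductase Steap4, 0.53 higher (SE 0.11, limma adjusted p = 0.0189), so that 6 of 20 rose there, beside 1.71% of all genes called. The median of the 20 genes was 0.30 at that dose, and for NRCWE-025, where 0 of 20 were called, it was -0.01. On day 28, 0 of 20 were called for either material in the F-test of dose. In the limma F-test between the materials on that day 1 of 20 was called, beside 0.236% of all genes. This was Slc31a1, a copper importer, with an adjusted p of 0.00286 in that F-test over the doses. At 162 µg it was 0.41 higher with NRCWE-030 than with NRCWE-025 (SE 0.10).

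Markers of other cells moved in some of the same lungs. Of the 7 neutrophil markers measured, 2 (Csf3r and Il1r2) were called in the limma F-test of NRCWE-030 on day 1. Both were higher than vehicle at 162 µg, and 0.959% of all genes were called in that test. The other markers of this list were not called there. The mean of the list ran from 2.13 to 2.79 at 162 µg against 1.64 to 2.13 with vehicle. In vehicle lungs of day 28 it ran from 1.75 to 3.02, and its average there, 2.51, was the highest of the 14 groups. Over the 35 arrays of day 1 the mean of the neutrophil list had r = 0.62 with Mt2 and r = 0.46 with Mt1. The mean of 7 alveolar macrophage markers had r = -0.71 with Mt2, and ran from 3.41 to 4.76 at 162 µg of NRCWE-030 against 4.14 to 4.67 with vehicle. For the 8 atrial and pulmonary vein muscle markers r was 0.35 with Mt2 and 0.51 with Mt1, and for the 7 fat markers 0.23 and 0.48. The lung with the highest Mt2 had a muscle mean of 3.94, while vehicle lungs ran from 0.69 to 5.19. Of 4 liver markers, Alb was well above background on 67 arrays, Apoa1 on 13, Ttr on 3 and Fga on 2. Cidec, a lipid droplet protein gene on the fat list, fell by 1.36 at 162 µg of NRCWE-030 on day 1 (SE 0.31, limma adjusted p = 0.0306). On day 28 Mmp9, on the neutrophil list, was 1.11 lower at that dose than with vehicle (SE 0.16, limma adjusted p = 0.00287). Those vehicle lungs were the group highest in the mean of that list. The part of these cells in the Mt2 and Slc39a14 values was not tested.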

How the data were processed

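Lung RNA (Cy5) and Universal Mouse Reference RNA (Cy3) were hybridised to 2-colour Agilent arrays with no dye swap, and the authors scanned them on 19 slides over 11 days with Agilent Feature Extraction 11.0.1.1 (submitters' processing notes; array design on mm9). The deposited scanner files give spot signal and local background as linear intensity, a log10 ratio, and flags of 0 or 1, which served as a score per spot, all named as such per the file headers. The authors' deposited value table is in log2 after LOWESS. Its median slope on a loess without background correction was 0.99. The lowest slope was 0.87, with r = 0.92, for replicate 5 at 18 µg of NRCWE-030 on day 28.

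From the intensities, each local background that the scanner marked as an outlier took the median background of its array instead (median 1.49% of spots in Cy5). The deposited ones had drawn the fitted background mean far down on several arrays, to -259.4 in Cy5 and -1152.5 in Cy3 at the lowest. Background was corrected by normexp (offset 50), followed by loess within arrays. Flagged spots were left out, and the median was taken over the spots of a probe and the probes of a gene. Of 41174 probes, 27479 (66.7%) had a symbol in the RefSeq table of GRCm38.p6. The 93 symbols with a missing value were left out and 18656 genes tested.

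Each material and day was fitted with its vehicle group in limma 3.58.1 (R 4.3.3). An F-test of dose and contrasts against vehicle were taken, with 1 fit of all 14 groups for comparisons of materials and days. P-values were adjusted over all genes by Benjamini-Hochberg. Alternatives were other backgrounds, scaling and probe rules, slide and scan day as blocks, each array left out, 1 fit of all groups, an ordinary F-test and, added after seeing the data, each probe alone. The scripts were tested on simulated data. Named genes were the 7 members, the genes of 2 pathway lists called in an F-test of dose and the 5 genes most like Mt1, Mt2 and Slc39a14. Slc39a7, Slc39a1, Hmox1, Steap4, Slc31a1 and the markers were named after their values were seen. The members, lists and tests were chosen with earlier results of these data known. The number of arrays limits the precision. Figures were drawn with matplotlib 3.10.9.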

Additional observations from a re-analysis of the deposited data

Results flagged for a closer look

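Of 98 sets of a member's values in 1 group, 3 held a lung far from the others by Dixon's test. Chance alone marks about 1 in 20 such sets, which is more than were marked here. The Mt2 value of replicate 5 at 54 µg of NRCWE-030 on day 1 was -0.13, the next being -1.76. The Mt3 value of replicate 5 of the vehicle group on day 1 was 0.66, the next being 0.28. The Slc30a1 value of replicate 2 at 18 µg of NRCWE-030 on day 1 was 1.15, the next being 1.38.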

How the results depend on the processing

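In 21 comparisons 0 of 7 members were called, and this held in all alternatives other than the following. With all 14 groups in 1 fit, 1 member was called in the F-test of NRCWE-030 on day 1 (Mt2), 2 at 162 µg (Mt2 and Slc39a14) and 1 at 54 µg (Slc30a1). With the scanner log ratio, 1 was called in that F-test and 1 at 162 µg (Slc39a14 in both), and with slide as a random block 1 was called at 54 µg (Slc30a1). Leaving out each array in turn gave 0 to 1 called members at 54 µg of NRCWE-030 on day 1 (Slc30a1, without replicate 3 of the vehicle group) and 0 in the other comparisons. The causes were not tested. Counts over all genes moved more. At 162 µg of NRCWE-030 on day 1, 319 genes were called, against 50 with scan day and 72 with slide as fixed block, 495 with slide as random block, 529 with the scanner log ratio and 584 with all groups in 1 fit. At 54 µg the 15 called genes became 118 with slide as random block and 100 with all groups, and at 162 µg of NRCWE-025 the 39 became 0 with either fixed block and 170 with slide as random block. In the F-test of NRCWE-030 on day 1, 179 became 76 with the ordinary F-test and 461 with slide as random block. Of the member differences from vehicle, 14 had an unadjusted p under 0.05, and each kept its direction under every alternative and every array left out. Of the other 70, 39 changed sign under at least 1 alternative. Slc39a14 and 1 probe of Mtf1 lay near background, which limits their precision. No paired analysis was possible because the replicate numbers only count samples within a group in accession order and pair no animals. The values matched by slide and the fits with slide as a block, given above, pair arrays and not animals.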
